A study of Drosophila melanogaster with 18 samples.

Results

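The comparison is of males at day 25 with males at day 10 of adult life, read in the RNA of the second antennal segment of *Drosophila melanogaster*, the segment that holds Johnston's organ, the ear of the fly. It rests on 4 of the 18 libraries of the series, CT09 and CT10 from males of day 10 and CT11 and CT12 from males of day 25, chosen by their labels. The series follows the ear over adult life, with 2 libraries for each of 9 groups of age and sex, with males of days 1, 5, 10, 25, 50 and females of the same days except day 10. All flies were virgin Canton-S kept at 25 °C, 60% relative humidity and a 12 h light to 12 h dark cycle, with the sexes in separate vials, so that the groups compared here differ by age alone as far as the labels say. The cDNA came from the SMART-Seq v4 kit, its tagmentation from Nextera XT, and a NextSeq 500 read it. Nothing in the labels says whether the 2 libraries of a group came from separate cultures, and p-values then measure the spread between libraries only.

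Johnston's organ is a chordotonal organ, in which bundles of ciliated neurons are stretched when sound turns the third antennal segment. The pull opens channels of the TRP family, NompC, Nanchung and Inactive among them, and the neurons, set in an endolymph that support cells fill through ion pumps, send their signal along the antennal nerve. The neurons also move, as their cilia carry axonemal dyneins, and pumping, signalling and movement all draw on ATP from mitochondria.

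Under the deposited scaling, genes of energy supply, of protein synthesis and breakdown, of muscle and of ion pumping fell more often than they rose from day 10 to day 25 in males, while receptors for smell and taste, nicotinic receptor subunits, cuticle proteins and long non-coding RNAs rose more often than they fell. Of 14663 genes tested, 2465 rose and 1789 fell, 29.0% in all, at a limma adjusted p below 0.1 and a fold change above 1.5. The calls for risers were 16.8% and those for fallers 12.2% of all genes, the background for the counts of genes below. Both shares depended on level, and 51.3% of genes at 2000 to 10000 normalised counts per kb of exon fell. The level of the sodium pump subunit *Atpalpha* stood at 42280 and 44574 normalised counts at day 10 and 27394 and 17283 at day 25, and that of the nicotinic receptor subunit *nAChRalpha3* at 616 and 607, then 1294 and 1778. Pairs of values written in this way, with "then" between them, are CT09 and CT10, then CT11 and CT12, in normalised counts. The calls lean on CT12: without it, 20 genes rose and 45 fell.

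The 4 libraries differed in depth with age, since CT09 and CT10 held 12508707 and 12123464 reads in genes and CT11 and CT12 held 5815182 and 6414483, the smallest totals of the series, whose largest was 14315927. Thinned to 5815182 reads each, the libraries still gave 2172 risers and 1651 fallers. The shallower libraries of day 25 reached 10 normalised counts in more genes, 13397 and 13572 against 12709 and 12865, and less of their reads lay in mitochondrial transcripts (6.57% and 6.93% against 9.16% and 8.15%) and in their 10 most abundant genes (11.9% and 12.4% against 15.4% and 15.7%). Values in a pair correlated with r = 0.951 at day 10 and 0.957 at day 25 across genes, which are not independent replicates. The label male held in the 4 libraries, with *roX1*, an RNA of male dosage compensation, at 32154 and 34078, then 27560 and 16420. None of 10 sex markers was called between the 2 ages, which compares males with males and does not bear on the label. In the 2 libraries labelled male day 50, *Yp1*, a yolk protein gene of females, stood at 1944 and 25444 (CT15, then CT16), against 155.8 and 103 at day 10 and 151 and 184 at day 25, while *roX1* stood at 24812 and 21999 in the same 2 libraries. In the 2 labelled female day 50, *Yp1* stood at 24388 and 19045 and *roX1* at 1118 and 16418. The libraries labelled CT16 and CT18 thus held RNA marking both sexes, each going against its label in 1 of these genes. In CT15 too *Yp1* lay above its level in every other male library except CT16. Results that rest on day 50 are few below, and left without the day 50 libraries the comparison gave 2639 risers and 1821 fallers.

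Risers had a lower median level than fallers. Among the 14407 genes with an exon length, 22.3% of those at 20 to 100 normalised counts per kb rose and 5.02% fell, while of those at 2000 to 10000 per kb 0.513% rose and 51.3% fell. The shares did not move evenly with level, as 12.8% rose and 1.74% fell under 20 per kb, and 0.00% rose and 30.9% fell at 10000 per kb or more. Some lists below had a median level of 2000 to 10000 per kb and no larger share of fallers than its 51.3%. They were cytosolic ribosomal proteins (3162 per kb, 40.2% fell), glycolytic enzymes (2739, 42.9%), nuclear respiratory chain genes (2299, 49.3%) and mitochondrially encoded genes (4806, 20.7%). ATP synthase subunits (6740 per kb) had 84.6% lower. Citric acid cycle enzymes (1820 per kb) had 52.9% lower, beside 36.3% of genes at 500 to 2000 per kb. Genes that rose had a median level of 79.98 normalised counts per kb and a median fold of 2.56, and genes that fell 332 per kb and 1.73-fold. A rise of at least 2-fold was seen in 1969 of the risers and a fall of that size in 396 of the fallers. Normalised counts, which are reads divided by 1 size factor per library, could be rebased on the total of each library: all 2465 risers and 247 of the fallers then stayed called, and the counts became 3871 and 247. That rebasing moved the median of all genes by 0.40 on the log2 scale, from -0.01 to 0.39. Rebased on abundant genes (mean of at least 500), the fit called 3506 risers and 333 fallers and the median moved by 0.34. The falls below are given in the deposited scaling, in which the median gene lies near 0, and most of them were not called in total-count terms. In 9851 genes, or 67.2% of all, the 2 ages did not overlap, 34.2% with day 25 higher and 32.9% with it lower. Among called genes the ages did not overlap in 2455 of the 2465 risers and 1784 of the 1789 fallers. Lack of overlap thus follows largely from a call and adds little support to the called genes below.

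**Figure D1:**
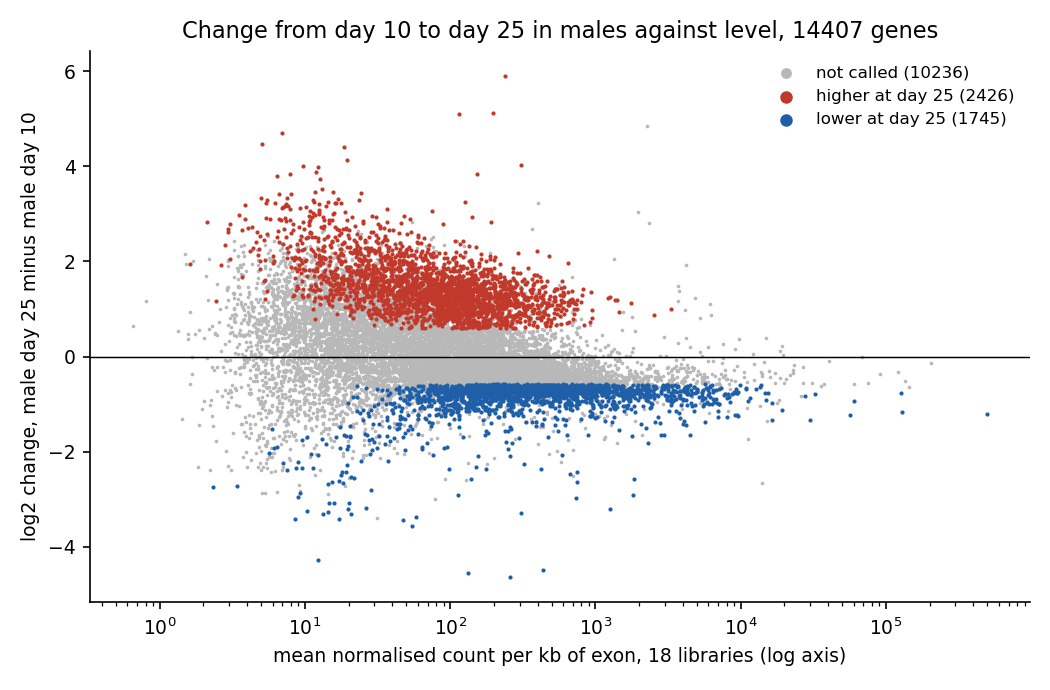
Each point is 1 of 14407 genes, with its mean normalised count per kb of exon over the 18 libraries (horizontal, log axis) and its log2 change from male day 10 to male day 25 (vertical). Risers (red) have a median of 79.98 per kb and fallers (blue) of 332 per kb, so blue points lie further right, and grey genes passed no call. Under total-count scaling 247 of the 1789 fallers stay called.

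**Figure D2:**
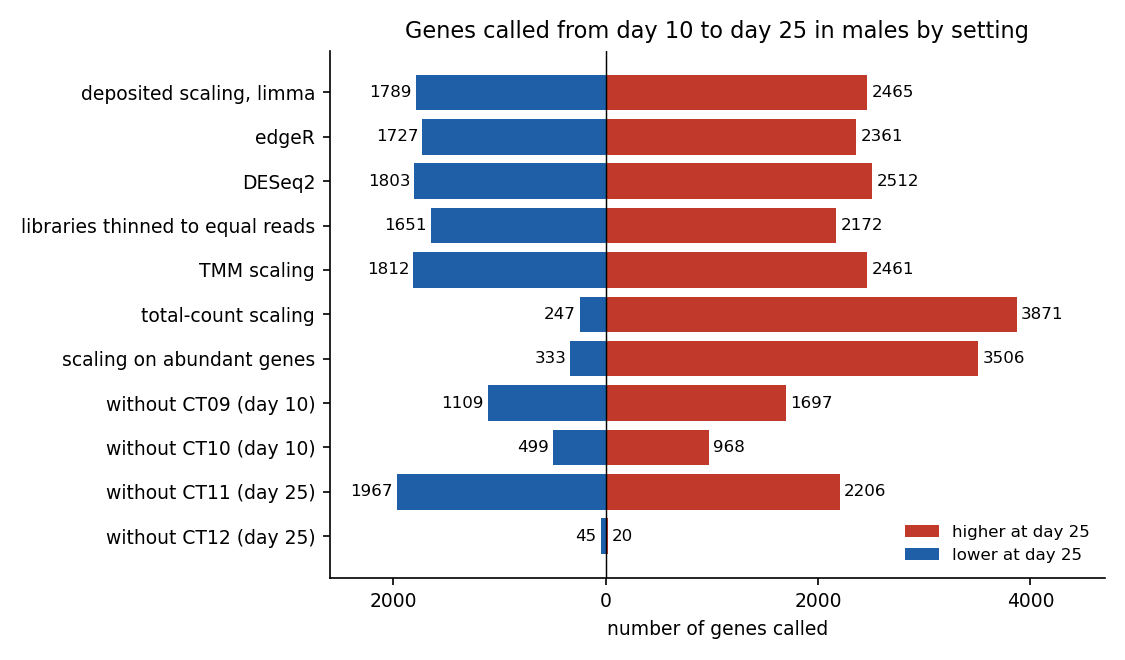
Bars give the number of genes called higher (right, red) and lower (left, blue) at day 25 under each test, scaling and left-out library. The limma fit calls 2465 and 1789, total-count scaling 3871 and 247, and the fit without CT12 20 and 45.

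Genes of energy supply fell far more often than they rose. The 13 nuclear subunits of ATP synthase, which makes ATP in mitochondria, all had negative log2 changes, 11 of them fell and the median was -0.78, beside -0.01 over all genes. Its c-ring subunit *ATPsynC* (CG1746 in the files) had levels of 32446 and 32866 at day 10 and 18042 and 15239 at day 25. Both libraries of day 25 lay below both of day 10, with a log2 change of -0.98 (SE 0.22, limma adjusted p = 0.012). The α subunit gene *blw* stood at 14940 and 17854, then 9963 and 7802 (log2 change -0.89, SE 0.24, adjusted p = 0.0197). Of the 67 nuclear genes of the respiratory chain 33 fell and 4 rose, with a median of -0.61. *COX4* (CoIV), a subunit of cytochrome c oxidase, stood at 8655 and 8172, then 4131 and 4070, with a log2 change of -1.04 (SE 0.18, adjusted p = 0.00876). Its call held with each of the 4 libraries left out, as did that of *UQCR-Q* (CG7580), a subunit of complex III, at 5988 and 6368, then 3338 and 3378. Both genes were picked after their values were seen. The 4 risers among the respiratory genes had levels of 50.1 to 252 normalised counts per kb, against a median of 2621 in the fallers. They include *COX4L* (CG10396), at 43.8 and 67.3, then 140 and 132, and *ND-51L2* (CG8102), at 46.6 and 56.4, then 126 and 185, both named as paralogs of the common subunits.

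In the citric acid cycle 9 of 17 enzymes fell, none rose and the median was -0.69. *Idh*, an NADP-dependent isocitrate dehydrogenase, stood at 12516 and 12682 at day 10 and 6307 and 5189 at day 25, with a log2 change of -1.14 (SE 0.21, limma adjusted p = 0.00876). Citrate synthase, *kdn*, went from 6050 and 6887 to 3587 and 2642 (log2 change -1.07), and malate dehydrogenase, *Mdh2*, from 7231 and 7269 to 3829 and 3370 (log2 change -1.01). In these 3 genes both libraries of day 25 lay below both of day 10, and all 3 were still called under total-count scaling, where *Idh* had a change of -0.73. *SdhA*, a subunit of succinate dehydrogenase, was the study's endogenous control in qPCR, chosen for stable expression at different ages. In these libraries *SdhA* stood at 4618 and 5216, then 3818 and 2866 (log2 change -0.57, adjusted p = 0.058) and missed the call by its fold alone. Glycolysis had 6 of 14 enzymes lower, among them aldolase, *Ald*, at 24118 and 23806, then 15824 and 13640, and a median of -0.59. Of 29 mitochondrially encoded genes 6 fell. The large mitochondrial rRNA, *mt:lrRNA*, stood at 487560 and 442671, then 216322 and 188868 (log2 change -1.20, SE 0.41, adjusted p = 0.0463), while *mt:CoI*, cytochrome c oxidase subunit I, did not pass at 129977 and 120503, then 80644 and 89698. The mitochondrial list had a median of -0.35, which turned to 0.06 under total-count scaling. Of the 136 genes of these 5 lists 63 fell and 4 rose, against 10 and 8 under total-count scaling, 53 and 0 without CT09, 31 and 2 without CT10 and 2 and 0 without CT12.

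**Figure D3:**
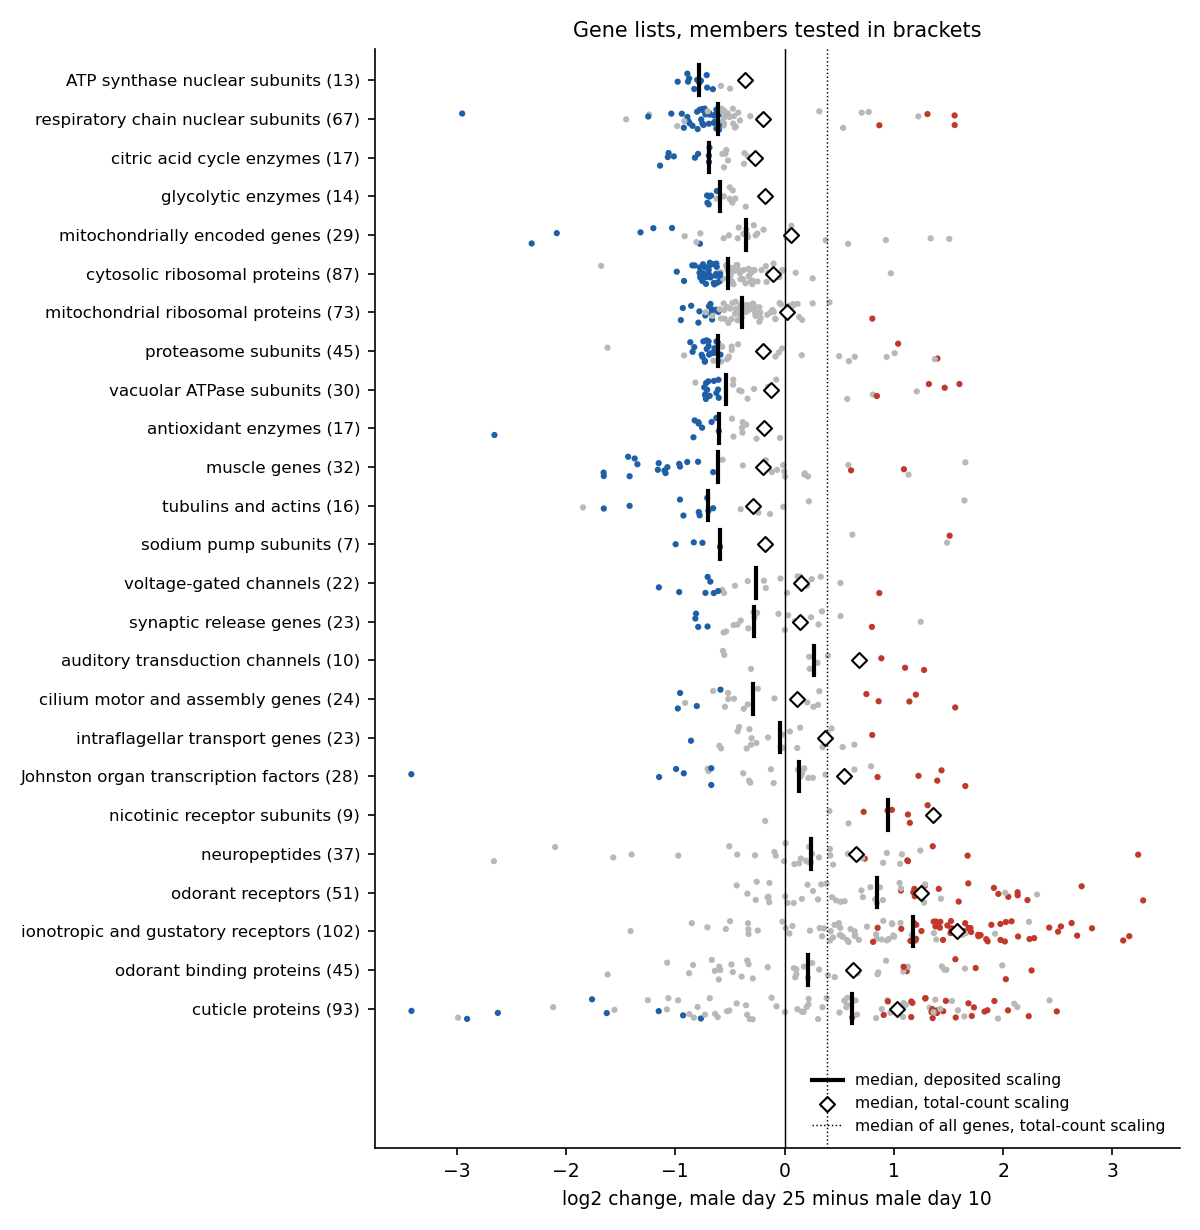
Points are the members of 25 gene lists, with the log2 change from male day 10 to male day 25 (horizontal), red where higher, blue where lower and grey where not called. Black bars mark list medians, such as -0.78 for ATP synthase and 1.17 for ionotropic and gustatory receptors, and diamonds the medians under total-count scaling, which lie about 0.40 further right and change sign in the mitochondrially encoded, mitochondrial ribosomal, voltage-gated, synaptic, cilium and intraflagellar transport lists.

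Genes that make and break down proteins fell more often than they rose. Of 87 cytosolic ribosomal proteins 35 fell and none rose, with a median of -0.52 and log2 changes of -0.99 to -0.59 among the fallers. *RpL15* stood at 5256 and 4963 at day 10 and 2747 and 2652 at day 25 (log2 change -0.92, limma adjusted p = 0.0125). Mitochondrial ribosomal proteins had 13 of 73 members lower and 1 higher, *mRpL39*, and a median of -0.39 that turned to 0.02 under total-count scaling. Of 45 proteasome subunits 21 fell and 2 rose, with a median of -0.61. *Prosbeta3*, of the catalytic core, stood at 1935 and 2631, then 1278 and 1240 (log2 change -0.84), while the risers, *Rpn13R* (81.1 and 79.2, then 165 and 275) and *Prosalpha6T* (166 and 124, then 260 and 336), are paralogs of common subunits. Of 29 genes of splicing and RNA processing 8 fell, such as *Srp54* at 627 and 671, then 330 and 306, and 1 rose. In the 234 genes of the 4 lists 77 fell and 4 rose, which became 1 and 9 under total-count scaling, 27 and 4 without CT09, 11 and 1 without CT10 and 0 and 0 without CT12.

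Ion pumps, which set the ionic surroundings of the auditory neurons, fell more often than they rose. Of 7 sodium pump subunits 4 fell and 1 rose, with a median of -0.59. *Atpalpha* (FBgn0002921, 3R from 20948714 to 20976239 of dm6), the catalytic subunit, stood at 42280 and 44574 at day 10 and 27394 and 17283 at day 25, with a log2 change of -0.996 (SE 0.26, limma adjusted p = 0.0176). Both day 25 libraries lay below both of day 10, and CT12 lay well below CT11. Of the β subunits, *nrv3*, the neuronal form, stood at 16763 and 16593, then 10788 and 8153 (log2 change -0.83, adjusted p = 0.0196), *nrv2*, of glia and support cells, at 10102 and 14160, then 9038 and 5588 (log2 change -0.75, adjusted p = 0.048), and *nrv1* at 1978 and 2263, then 1603 and 1231 (log2 change -0.59, adjusted p = 0.0401). Under total-count scaling none of the 4 was called, and the change of *Atpalpha* was -0.58. The riser of the list, CG33310, stood at 61.6 and 59.4, then 165 and 184. In *Atpalpha* the level had been 75666 and 66749 in males of day 1 and 49064 and 41829 at day 5.

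Of 30 subunits of the vacuolar ATPase, the proton pump, 14 fell and 4 rose, with a median of -0.54. *Vha16-1*, of the membrane ring, stood at 18435 and 20457, then 13689 and 10472 (log2 change -0.70). The risers *Vha100-5*, *VhaAC39-2*, *Vha100-3* and *Vha36-3* had levels of 14.8 to 573 normalised counts per kb, against a median of 1928 per kb in the fallers, and *Vha100-5* stood at 231 and 224, then 502 and 952. Among 7 innexins, which form gap junctions in insects, 3 fell. *Inx2* stood at 1409 and 1537 at day 10 and 989 and 543 at day 25 (log2 change -1.005, SE 0.23, limma adjusted p = 0.012), and was still called under total-count scaling, with a change of -0.59. *Inx3* stood at 699 and 791, then 465 and 320 and *ogre*, or Innexin 1, at 2114 and 2035, then 1284 and 1258. The neuronal innexin *shakB* passed no call at 2162 and 1714, then 1639 and 1690. In the 44 genes of the 3 lists of pumps and innexins 21 fell and 6 rose, which became 1 and 9 under total-count scaling, 5 and 4 without CT10 and 0 and 0 without CT12.

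Muscle genes fell more often than they rose. In bulk RNA fewer cells of a type and less RNA per cell cannot be told apart. Of 32 muscle genes 16 fell and 2 rose, with a median of -0.61, and 10 still fell under total-count scaling. *SERCA* (Ca-P60A in the files), the calcium pump of the sarcoplasmic reticulum, stood at 4336 and 6832 at day 10 and 1932 and 1544 at day 25, a log2 change of -1.66 (SE 0.29, limma adjusted p = 0.00876). *Act79B*, a muscle actin, stood at 737 and 1464, then 342 and 317 (log2 change -1.65), and *Mlc2*, a myosin light chain, at 2029 and 3094, then 1031 and 941 (log2 change -1.35). CT10 was the higher library of day 10 in all 3, and both libraries of day 25 lay below CT09. Males of day 1 held 21767 and 18494 of *Act79B* and 25246 and 17996 of *SERCA*, above every library of the 2 later ages. Of the 16 tubulins and actins 9 fell, *Act5C* at 16949 and 21449, then 13294 and 9312 among them, and none rose. The giant muscle-associated protein gene *Msp300* passed no call, at 9455 and 9130, then 8893 and 7645. *Mlp60A*, a muscle LIM protein, and *TpnC25D*, a troponin C, both picked after their values were seen, fell whichever of the 4 libraries was left out. *Mlp60A* stood at 2236 and 3077, then 1130 and 1232. Of the 44 genes of muscle and cytoskeleton 22 fell and 2 rose, against 10 and 7 under total-count scaling, 23 and 2 without CT09, 8 and 0 without CT10 and 2 and 0 without CT12. The summed level of the 10 muscle markers was 8968 and 13593 at day 10 and 5636 and 5602 at day 25.

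Of the genes for mechanotransduction, 3 of 10 rose, none fell by limma, edgeR or DESeq2 (2 had a negative change at an unadjusted p below 0.05, and 2 fell without CT11), and the median log2 change was 0.27. *pyx*, a TRPA channel, stood at 165 and 319 at day 10 and 479 and 648 at day 25 (log2 change 1.28, SE 0.31, limma adjusted p = 0.0151). *nompA*, a protein of the cap that joins the neuron to the receiver, stood at 423 and 264, then 599 and 865 (log2 change 1.10, adjusted p = 0.0235), and *TrpA1* at 409 and 317, then 521 and 850 (log2 change 0.89, adjusted p = 0.0463). In each of the 3 both libraries of day 25 lay above both of day 10. The channels that carry the auditory signal itself passed no call. *nompC* stood at 735 and 693, then 914 and 967, with a log2 change of 0.40 (SE 0.18, adjusted p = 0.117). *nan* stood at 517 and 611, then 586 and 742 (0.23, adjusted p = 0.494), and *iav* at 1393 and 1382, then 1096 and 817 (-0.55, adjusted p = 0.109). All 3 were well expressed in the 4 libraries, as the tissue label requires. Under total-count scaling *nompC* and *nan* were called higher, with changes of 0.81 and 0.64, and *iav* was at -0.14.

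Motor genes of the cilium were called both ways, at shares not far above those of all genes. Of 24 genes 5 rose (20.8%) and 4 fell (16.7%), beside 16.8% and 12.2% of all genes. The median of -0.29 turned to 0.11 under total-count scaling. The axonemal dynein heavy chain gene *Dhc98D* stood at 403 and 332 at day 10 and 889 and 1317 at day 25 (log2 change 1.56, SE 0.31, limma adjusted p = 0.00876). Another, *Dhc62B*, stood at 619 and 514, then 1163 and 1451 (log2 change 1.20), and *Dhc16F* at 132 and 177, then 333 and 346 (log2 change 1.14). The heavy chain gene *Dhc93AB* was at 3093 and 3513, then 2438 and 2176 and missed the call by its fold alone, and the dynein assembly factor *Dnaaf4* (CG14921) fell, from 243 and 215 to 104 and 128. Of 23 genes of intraflagellar transport 1 rose, *btv*, at 205 and 208, then 292 and 445, and 1 fell, the kinesin gene *Klp68D*, at 807 and 885, then 550 and 395, with a median of -0.04 that turned to 0.37 under total-count scaling.

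Of 28 transcription factors of Johnston's organ and its development 5 rose (17.9%) and 6 fell (21.4%), beside 16.8% and 12.2% of all genes. Their median was 0.14 (-0.03 by edgeR). *ara*, of the Iroquois complex, stood at 192 and 224 at day 10 and 431 and 696 at day 25 (log2 change 1.40, SE 0.32, limma adjusted p = 0.0121), and *sens*, a zinc finger factor of sense organ precursors, at 82.1 and 69.3, then 151 and 280 (log2 change 1.44). The related genes *dan* and *danr*, which are expressed in the developing antenna, moved apart at low levels, *dan* from 9.33 and 19.8 to 48.2 and 42.2 and *danr* from 29.8 and 22.8 to 0 and 5.45. Of *wor*, *onecut*, *Optix* and *amos*, transcription factors that the study followed up, *wor* rose, from 55.0 and 31.7 to 80.8 and 121 (log2 change 1.23, SE 0.43, adjusted p = 0.0544). The other 3 passed no call: *onecut* stood at 873 and 898, then 1063 and 922, *Optix* at 332 and 182, then 182 and 279, and *amos* at 28.9 and 30.7, then 46.6 and 58.5, with log2 changes of 0.16, -0.13 and 0.79. CG8369, an abundant gene, passed no call at 232333 and 211338, then 185609 and 221258. *lola*, a zinc finger factor, passed no call at 6133 and 5838, then 6870 and 7462 and was called higher under total-count scaling, at 0.67. Of the 84 genes of these 4 lists of the ear 14 rose and 11 fell, against 27 and 2 under total-count scaling, 6 and 4 without CT09, 7 and 4 without CT10 and 0 and 0 without CT12.

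**Figure D4:**
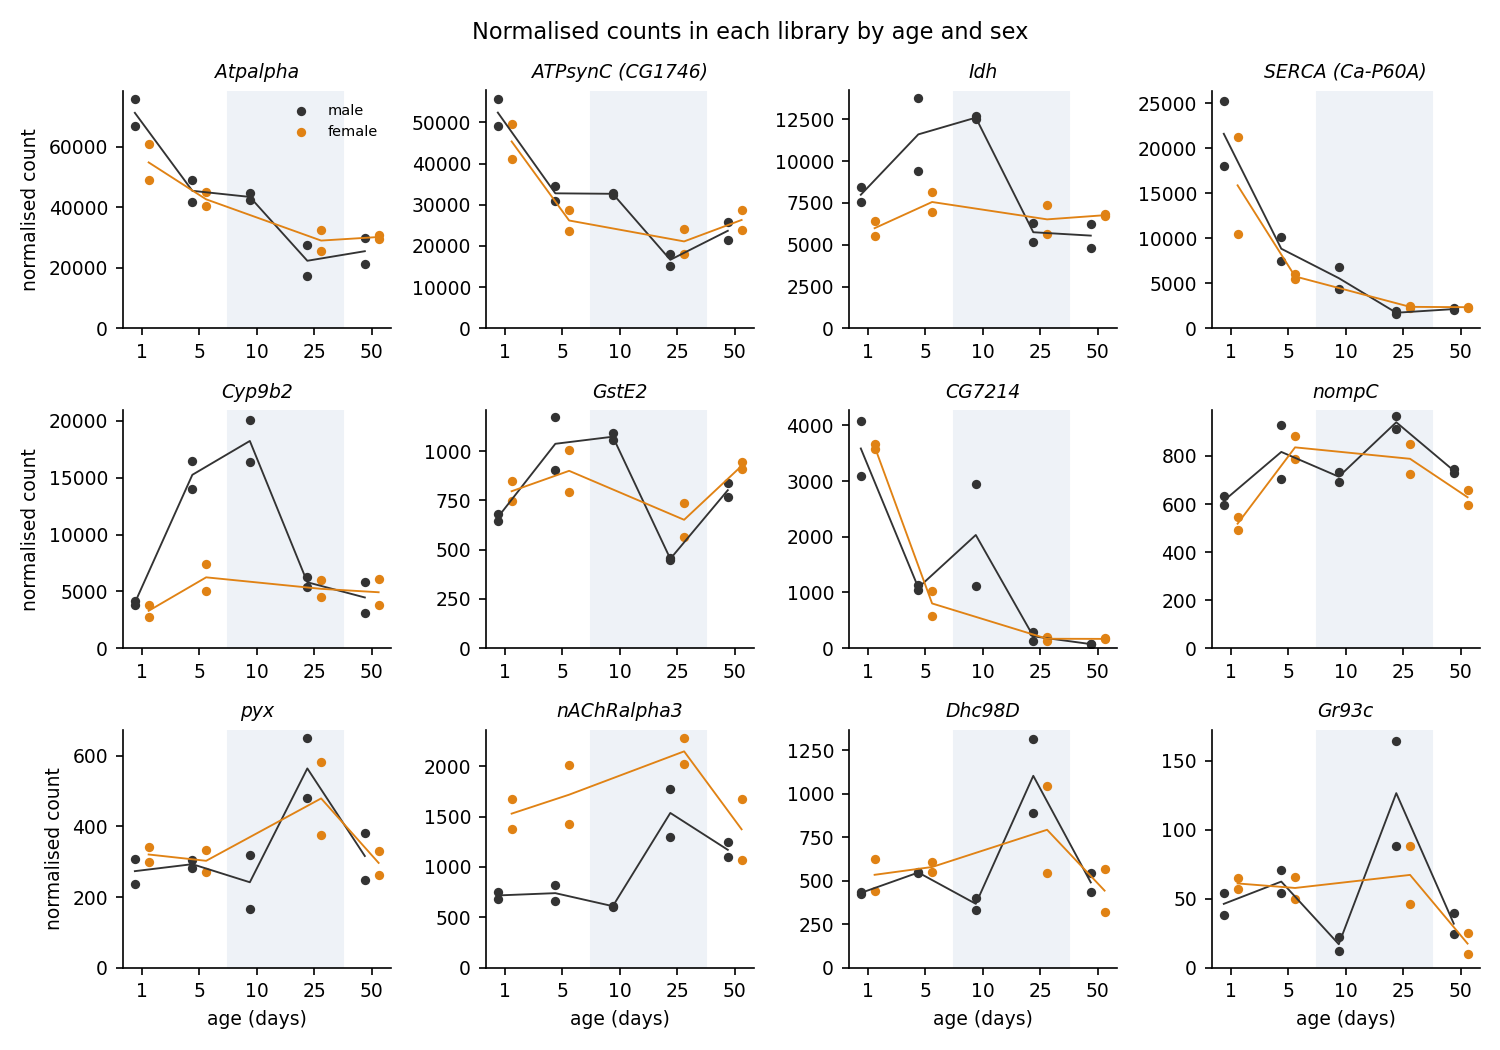
Points are normalised counts of 12 genes in the 10 male (black) and 8 female (orange) libraries by age, on an axis of evenly spaced ages, and lines join group means; days 10 and 25 are shaded. In males *nAChRalpha3* goes from 616 and 607 at day 10 to 1294 and 1778 at day 25, and *Atpalpha* from 42280 and 44574 to 27394 and 17283, a fall that total-count scaling leaves uncalled.

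Nicotinic acetylcholine receptor subunits, which build the main excitatory receptor of the fly brain, rose more often than they fell. Of 9 subunits 6 rose and none fell, with a median log2 change of 0.94 (0.75 without CT10 and 0.71 without CT12). No subunit stayed called with each of the 4 libraries left out. *nAChRalpha3* (FBgn0015519, X from 8276200 to 8367169 of dm6) stood at 616 and 607 at day 10 and 1294 and 1778 at day 25, a log2 change of 1.31 (SE 0.23, limma adjusted p = 0.00876). *nAChRalpha6* stood at 1503 and 1168, then 2424 and 3467 (log2 change 1.13), and *nAChRbeta2* at 249 and 219, then 406 and 660 (log2 change 1.15). *nAChRalpha2*, at 438 and 318, then 693 and 786, and *nAChRalpha7*, at 1093 and 896, then 1534 and 1743, rose too. In all 9 subunits the ages did not overlap, beside 67.2% of all genes. Females held more *nAChRalpha3* than males of day 10 at every age, 2011 and 1423 at day 5 and 2018 and 2276 at day 25.

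Other neuronal genes moved both ways. Of 23 genes of synaptic release 4 fell and 1 rose, and of 22 genes of voltage-gated channels 7 fell and 1 rose, with medians of -0.28 and -0.26 that turned to 0.14 and 0.15 under total-count scaling. The complexin gene *cpx* stood at 10363 and 9633 at day 10 and 6954 and 4669 at day 25 (log2 change -0.81, limma adjusted p = 0.0209), and the vesicular acetylcholine transporter gene *VAChT* at 1185 and 1406, then 833 and 644 (log2 change -0.82). The riser was *VGAT*, the vesicular GABA transporter gene, at 83.9 and 124, then 166 and 191. Of the channel genes, *para*, the sodium channel of action potentials, stood at 9509 and 8508, then 6295 and 5234 (log2 change -0.65, adjusted p = 0.0429), and *Shal*, a potassium channel, at 414 and 439, then 323 and 147. Of the auxiliary subunits of the sodium channel, *Teh4* fell, from 502 and 543 to 283 and 195, and *Teh1* rose, from 1439 and 983 to 1894 and 2488. Among 37 neuropeptide genes limma called 6 higher and 0 lower (1 lower at an unadjusted p below 0.05), and edgeR and DESeq2 each called 1 lower, with a median of 0.24. The risers were 16.2% of the list, beside 16.8% of all genes. *Dh44*, a diuretic hormone of the CRF family, stood at 513 and 457, then 920 and 1221 (log2 change 1.13, adjusted p = 0.0101), *Tk*, tachykinin, at 65.3 and 75.2, then 157 and 208, and *Ilp2*, an insulin-like peptide, at 3.73 and 4.95, then 76.2 and 31.3. The 10 neuronal markers, of which 4 fell and none rose, summed to 42400 and 39174 at day 10 and 32865 and 27487 at day 25, and *elav*, a general neuronal marker, stood at 1130 and 1184, then 756 and 640. Of the 91 genes of the 4 lists 14 rose and 11 fell, against 27 and 1 under total-count scaling, 12 and 6 without CT09, 5 and 2 without CT10, 15 and 18 without CT11 and 0 and 0 without CT12.

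Receptors of smell and taste that were called by limma, edgeR or DESeq2 were higher at day 25, while most of them passed no call. The second segment is not the site of the olfactory neurons, which lie in the third, and levels were low. Of 102 ionotropic and gustatory receptor genes 49 rose and none fell, with a median log2 change of 1.17 (1.57 under total-count scaling). Of 51 odorant receptor genes 16 rose and none fell, with a median of 0.84. *Gr93b* stood at 254.6 and 318 at day 10 and 614 and 877 at day 25 (log2 change 1.36, SE 0.26, limma adjusted p = 0.00876). *Gr93c* stood at 22.4 and 11.9, then 88.6 and 165 (log2 change 2.81), *Gr98d* at 3.73 and 21.8, then 88.6 and 87.1, and *Ir87a* at 247 and 225, then 474 and 980. The ages did not overlap in any of these 4. Males of day 5 had 71.0 and 54.1 of *Gr93c* and 57.1 and 37.2 of *Gr98d*, above their day 10 values. *Ir75c*, an ionotropic receptor picked after its values were seen, rose whichever of the 4 libraries was left out, from 129 and 189 to 426 and 472 (log2 change 1.52, adjusted p = 0.00876). Among odorant receptors *Or67b* stood at 18.7 and 16.8, then 85.5 and 87.1 and *Or47b*, which in the male antenna answers fly odours, at 197 and 168, then 337 and 512. The coreceptor *Orco* passed no call, at 928 and 853, then 1143 and 927, nor did *Or59b*, at 429 and 417, then 487 and 413.

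Odorant binding proteins had 6 risers and no faller by limma among 45 (2 lower at an unadjusted p below 0.05). The risers were 13.3% of the list, beside 16.8% of all genes. edgeR called 1 lower and DESeq2 3, and the list's median of 0.21 became -0.03 among members with a mean of at least 50. *Obp56h* stood at 56.0 and 64.3 at day 10 and 215 and 285 at day 25 (log2 change 2.02, limma adjusted p = 0.0108), while the abundant *Obp19d*, at 183203 and 224881, then 132626 and 128319, and *Obp83a*, at 12813 and 7119, then 9812 and 16112, passed no call. The 11 markers of the olfactory segment summed to 29713 and 17925 at day 10 and 24201 and 32239 at day 25, so that their ranges overlap. 1 of them, *Or47b*, was called higher. None of the 11 was at 0. Whether the rise of the receptors came with more tissue of the third segment was not tested. Of the 198 genes of these 3 lists 71 rose and none fell by limma, against 89 and 0 under total-count scaling, 57 without CT09, 29 without CT10, 56 without CT11 and 1 without CT12. Chemoreceptor genes took 0.0939% and 0.0811% of the reads in genes at day 10 and 0.209% and 0.267% at day 25. Outside CT11 and CT12 the highest share was 0.239%, in the female day 25 library CT14.

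**Figure D5:**
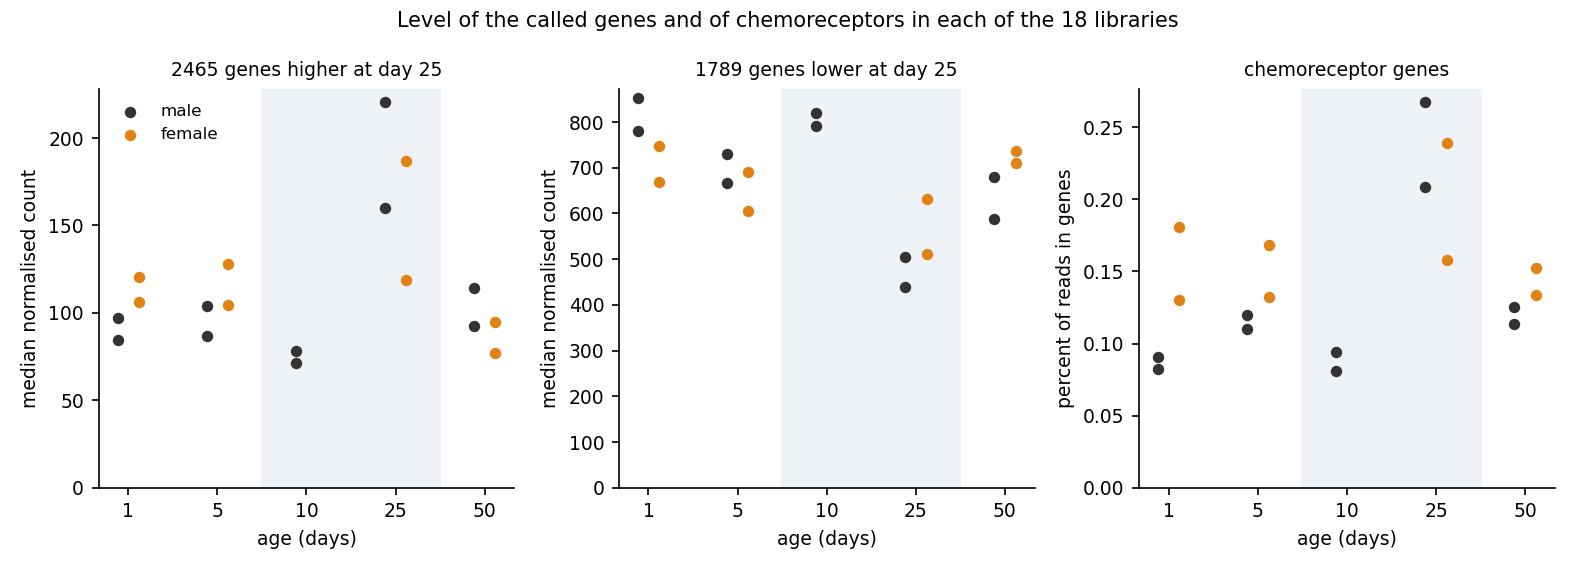
Points are the 18 libraries, males black and females orange, by age on evenly spaced positions; the left and middle panels give the median normalised count of the 2465 risers and the 1789 fallers, and the right panel the percent of reads in chemoreceptor genes. The risers' median is 78.3 and 71.2 at day 10 and 160 and 221 at day 25, and the fallers' is 791 and 819, then 505 and 440.

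Cuticle proteins moved both ways with more rises. Of 93 genes 26 rose and 8 fell, with a median of 0.62 (1.03 under total-count scaling). The risers had levels of 8.47 to 651 normalised counts per kb and the fallers a median of 804 per kb. *Cpr65Az* rose, from 1.87 and 1.98 to 12.4 and 19.1 (log2 change 2.49), at a low level. Among the fallers *Acp1*, an adult cuticle protein, stood at 648 and 817 at day 10 and 174 and 53.1 at day 25 (log2 change -2.90, SE 0.69, limma adjusted p = 0.0132), and *Cpr65Au* at 44257 and 60608, then 26188 and 28280 (log2 change -0.93, adjusted p = 0.0598). Of 27 enzymes of chitin 4 rose and 4 fell. *Cht7*, a chitinase, stood at 123 and 145, then 238 and 414, and *Gfat1*, the enzyme that starts the path to chitin's sugar units, at 1152 and 1218, then 575 and 534. Of the 120 genes of both lists 30 rose and 12 fell, against 41 and 5 under total-count scaling, 19 and 4 without CT09, 14 and 4 without CT10 and 0 and 0 without CT12.

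Enzymes of detoxification and oxidant defence fell more often than they rose, with most of the margin in glutathione S-transferases and antioxidant enzymes. Of 80 cytochrome P450 genes 15 fell (18.8%) and 11 rose (13.8%), beside 12.2% and 16.8% of all genes. Their median of -0.20 turned to 0.21 under total-count scaling. *Cyp9b2* (FBgn0015039, 2R from 7130277 to 7132139 of dm6) stood at 16393 and 20075 at day 10 and 5367 and 6225.2 at day 25, a log2 change of -1.65 (SE 0.30, limma adjusted p = 0.00876), which held with each of the 4 libraries left out and at -1.24 under total-count scaling. Males of day 5 stood at 14012 and 16496, males of day 1 at 3799 and 4175 and females of day 5 at 5012 and 7447, so the day 25 level of males lay near that of females. *Cyp6w1*, known for resistance to insecticides, stood at 15913 and 18281, then 8378 and 7082 (log2 change -1.15), and *Cyp6g1*, another such gene, at 57601 and 63050, then 38050 and 33130 (log2 change -0.76). Among the risers *Cyp304a1* stood at 92.3 and 78.2, then 199 and 302. Glutathione S-transferases had 12 fallers (32.4%) and 4 risers among 37, with a median of -0.52. Their median level was 574 per kb, and 36.3% of all genes at 500 to 2000 per kb fell, so their share of fallers was no larger. *GstE2* stood at 1090 and 1056, then 457 and 449 (log2 change -1.24, SE 0.19, adjusted p = 0.00876), also with each library left out. *GstD4* rose, from 319 and 242 to 530 and 886, and the abundant *GstD1*, at 25557 and 24729, then 15981 and 18376, missed the call by its fold alone.

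Of 34 UDP-glycosyltransferases 6 fell and 5 rose, and the median was positive, at 0.37 (-0.23 among members with a mean of at least 50). *Ugt301D1* (CG10178 in the files) stood at 3298 and 5776 at day 10 and 1266 and 1767 at day 25, a log2 change of -1.54 (SE 0.27, limma adjusted p = 0.00876) that held with each library left out, and *Ugt37C1* (Ugt37c1) rose, from 204 and 123 to 418 and 652. Antioxidant enzymes had 9 fallers and no riser among 17, with a median of -0.60. Catalase, *Cat*, stood at 6716 and 7556, then 4666 and 3659 (log2 change -0.79, adjusted p = 0.0215), and the mitochondrial superoxide dismutase, *Sod2*, at 2558 and 3016, then 1660 and 1462 (log2 change -0.83). The cytosolic superoxide dismutase, *Sod1* (Sod in the files), passed no call at 19332 and 21672, then 12248 and 17886. Of the 168 genes of detoxification and oxidant defence 42 fell and 20 rose, against 10 and 32 under total-count scaling, 28 and 14 without CT09, 19 and 9 without CT10 and 3 and 0 without CT12, the 3 being *Cyp9b2*, *GstE2* and *Ugt301D1*.

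Few genes of defence against microbes were called. Of 12 Bomanins and Daisho peptides, short peptides of the Toll response, 3 fell and none rose. *BomBc1* (IM23) stood at 712 and 452 at day 10 and 94.8 and 117 at day 25 (log2 change -2.42, SE 0.63, limma adjusted p = 0.0177), and *BomT3* (CG5778) at 2290 and 2089, then 812 and 841. Of 21 antimicrobial peptide genes 2 rose and 1 fell, with a median of 0.88 that became 0.02 without CT10. The faller was *Drs*, drosomycin, at 5137 and 1151, then 258 and 482 (log2 change -2.78, SE 0.94, adjusted p = 0.0471), and *Dro*, drosocin, at 3988 and 201.8, then 1950 and 1408, overlapped between the ages. *Drs* had been at 27.7 and 180 in males of day 5. Of 11 peptidoglycan recognition proteins 2 fell, *PGRP-LC* at 1593 and 1966, then 1239 and 1004 and *PGRP-LE* at 282 and 363, then 200.6 and 169, and of 20 genes of Toll and Imd signalling 3 fell and 1 rose. The serpin gene *nec*, an inhibitor of the Toll cascade, stood at 1756 and 2012, then 826 and 821, and *spz*, the Toll ligand, at 1462 and 1799, then 972 and 715. Of 16 Turandot genes and Jak-STAT targets 2 rose, *TotB* and *upd2*, and of 23 heat shock protein genes 6 fell and 3 rose. *l(2)efl*, a small heat shock protein, stood at 45.7 and 38.6, then 3.11 and 8.17, a fall held with each library left out, and *Hsp23*, another, rose from 53.2 and 66.3 to 149 and 528. The medians of the signalling, Turandot, heat shock and recognition protein lists, -0.30, -0.29, -0.35 and -0.02, turned positive under total-count scaling, and the last also without CT09 (0.19) and without CT11 (0.10). Of the 103 genes of these 6 lists 15 fell and 8 rose, against 5 and 11 under total-count scaling, 11 and 2 without CT09, 9 and 2 without CT10 and 1 and 0 without CT12.

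Of 17 clock genes limma called 0 (3 at an unadjusted p below 0.05, edgeR and DESeq2 called 0, 3 fell without CT09, 6 fell without CT11 and 1 rose without CT10), and their median of -0.38 turned to 0.03 under total-count scaling. Of 22 ecdysone response genes 4 rose, among them *br*, the Broad factor, at 912 and 848, then 1435 and 1947, and 2 fell, *Sox14* at 876 and 907, then 530 and 417 among them. Of 20 genes of insulin, Tor and FoxO signalling *Tor* rose, from 384 and 480 to 721 and 908 (log2 change 0.91, limma adjusted p = 0.0114), and 2 fell, *S6k*, a kinase that Tor activates, at 952 and 840, then 550 and 560, and *sda*, an aminopeptidase gene known from seizure mutants that stands in the list without being part of that signalling, at 4632 and 6760, then 3683 and 3385. The medians of the ecdysone and insulin lists, -0.26 and -0.25, turned to 0.12 and 0.16 under total-count scaling. Among 22 genes of lipid metabolism 5 fell and 1 rose, with *Lsd-2*, a coat protein of lipid droplets, at 5930 and 5329, then 3380 and 2338. Of 34 phototransduction genes 2 fell and 2 rose, and *Rh7*, a rhodopsin, rose from 423 and 377 to 623 and 919. Of the 113 genes of these 5 lists 8 rose and 11 fell, against 18 and 1 under total-count scaling, 4 and 3 without CT10, 8 and 21 without CT11 and 0 and 0 without CT12.

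CT09 stood apart from CT10 in genes of the eye. The 12 retina markers, none of which was called or at 0 in any of the 4 libraries, summed to 94676 in CT09 and 9264 in CT10, and to 15325 and 14889 at day 25. *ninaE*, the main rhodopsin of the eye, stood at 52509 and 3585, then 6659 and 6756, and *Arr2*, an arrestin, at 17650 and 1801, then 3106 and 2667. The part of eye tissue in the gene lists was not tested, and without CT09 1697 genes rose and 1109 fell. Glial markers had 5 fallers and 1 riser among 12 and summed to 43653 and 52516, then 34423 and 24111. *Gs2*, glutamine synthetase of glia, stood at 25093 and 29409, then 18736 and 13568 (log2 change -0.77, limma adjusted p = 0.0358). Fat body markers, 2 fallers and 1 riser among 13, summed to 32557 and 24294, then 13128 and 14485. Hemocyte markers had no call among 11 (18479 and 19859, then 14037 and 13722), and those of support and epithelial cells 1 riser, *nompA*, among 10 (16673 and 15628, then 16707 and 16708). Oenocyte markers had no call among 6 (11936 and 12159, then 8094 and 6364), and *eloF* and CG18609 were at 0 in at least 1 library. The markers of the accessory gland and testis had 2 risers among 10, *Acp26Aa* (20.52 and 80.1, then 132 and 192) and *dj* (274 and 282, then 370 and 594), with sums that overlap (349 and 1709, then 627 and 953). Their median was -1.21 (1.58 without CT10), limma called 0 lower (0 at an unadjusted p below 0.05), and edgeR called 3 lower, DESeq2 4 and the fit without CT09 5. *SP* was at 0 in at least 1 library.

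A set of 51 genes, or 0.348% of all, was called in the same direction with each of the 4 libraries left out in turn, 15 higher (0.102%) and 36 lower (0.246%), and 15 and 31 of them were also called under total-count scaling. All but 1 of the risers, a lincRNA, were protein-coding. The largest rises of the set, in CG43255, CG42705 and CG42704, were far apart between CT11 and CT12, with values given below. A call that held with each library left out thus did not require the libraries of an age to lie close together. The fallers named in the rest of this paragraph were, except *Vajk2*, picked after their values were seen, and enzymes that build and handle fatty acids are among them. *Hacd1* (CG6746) and *Sc2*, of the elongation cycle, stood at 2099 and 2596, then 899 and 892 and at 1629 and 1974, then 798 and 807. *Ldsdh1* (CG2254), a dehydrogenase of lipid droplets, stood at 20752 and 27798, then 9448 and 10595 (log2 change -1.26, SE 0.22, limma adjusted p = 0.00876). CG5973 and CG10237 went from 18583 and 26248 to 8448 and 9663 and from 9022 and 12225 to 3053 and 4442. *ple*, tyrosine hydroxylase, the first enzyme of dopamine synthesis, stood at 2905 and 3328, then 1239 and 1770 (log2 change -1.07), and *Manf*, a neurotrophic factor of the endoplasmic reticulum, at 734 and 581, then 317 and 357. *yellow-e*, of the yellow family, stood at 791 and 603, then 179 and 219, and *Vajk2* (CG16885), a protein of the cuticle, at 118 and 175, then 38.9 and 19.1. In all of these, as in all 36 fallers of the set, both libraries of day 25 lay below both of day 10.

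CG7214 (FBgn0031940, 2L from 7743682 to 7744839 of dm6) was the largest fall of this set once genes with a mean under 50 over the 4 libraries were set aside. It stood at 1117 and 2945 at day 10 and 291 and 133 at day 25, a log2 change of -3.20 (SE 0.41, limma adjusted p = 0.00806). Males of day 1 held 4071 and 3098, and in females it fell from 571 and 1033 at day 5 to 208 and 128 at day 25. Among the risers CG7606 stood at 14.9 and 15.8, then 131 and 117 (log2 change 2.93, SE 0.46), CG42335 at 196 and 196, then 659 and 798, CG6034 at 89.5 and 120, then 370 and 541, and CG4770 at 58.8 and 43.5, then 183 and 193. CG43164 stood at 81.1 and 79.2, then 271 and 325. *atk*, a protein of the matrix with leucine-rich repeats that chordotonal organs need, stood at 226 and 173, then 637 and 794 (log2 change 1.84, SE 0.29, adjusted p = 0.00876), and *Claspin*, of the replication checkpoint, at 200 and 158, then 516 and 587, both picked after their values were seen. In each of these genes, as in all 15 risers of the set, both libraries of day 25 lay above both of day 10. Males of day 5 already lay above both libraries of day 10 in each of the risers named here, and below both of day 25. They stood at 72.7 and 59.4 in CG7606, 374 and 223 in CG42335, 189 and 134 in CG6034 and 78.8 and 73.6 in CG4770. CG43164 stood at 182 and 165 at day 5, *atk* at 317 and 356 and *Claspin* at 391 and 322.

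Several of the largest rises were uneven between CT11 and CT12. CG43255 stood at 4.66 and 0.989 at day 10 and 1873 and 20.4 at day 25 (log2 change 5.90), CG42705 at 5.60 and 10.9, then 2346 and 39.5 (log2 change 5.12), and CG10469 at 33.6 and 32.6, then 1808 and 57.2 (log2 change 3.25). CG11672 went from 3.73 and 4.95 to 428 and 16.3. CG43134 was at 0 in both libraries of day 10 and at 496 and 1.36 in CT11 and CT12. In each of these 5 genes CT11 lay far above CT12. That CT12 too lay above both libraries of day 10 was a condition for naming the largest rises and adds no support. In CG43134 the value of CT12 is that of 1 read. CG42704, next to CG42705 on the X chromosome, stood at 14.9 and 17.8, then 711 and 84.4. Among the largest falls, *Rh2*, the rhodopsin of the ocelli, stood at 505 and 382, then 9.33 and 32.7 (log2 change -4.56, SE 1.23, limma adjusted p = 0.0206), but at 29.4 and 4.43 in males of day 5. *Lsp2*, a storage protein of the fat body, stood at 1476 and 656, then 66.9 and 150, and at 199 and 5166 in males of day 5. *erm*, a zinc finger factor, stood at 202.4 and 153, then 15.5 and 25.9 and *GstE14* at 175 and 77.2, then 15.5 and 13.6, while CG18628 was high in CT10 alone, at 8.39 and 197 and then 4.66 and 1.36. Other large falls were a 5.8S rRNA pseudogene, *5.8SrRNA-Psi:CR45854*, at 148 and 156.3, then 3.11 and 8.17, and *GNBP-like3*, at 623 and 292, then 21.8 and 129.

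LincRNAs rose far more often than they fell. Of 1570 lincRNAs 564 rose and 11 fell, with a median log2 change of 1.00, beside 1825 and 1768 of 12747 protein-coding genes. Kits of this kind do not mark strand, so reads of a lincRNA and of a gene that overlaps it cannot be told apart. The rise was seen in 188 of 616 lincRNAs that overlap a protein-coding gene and in 372 of 946 that overlap none. Of short RNAs, 22 of 84 tRNAs, 12 of 43 miRNA precursors and 7 of 17 snRNAs rose, as did 10 of 62 snoRNAs, a share of 16.1% that is near the 16.8% of all genes, and 3 tRNAs and none of the others lower. Of 119 pseudogenes 23 rose and 3 fell. LincRNAs took 1.87% and 1.70% of the reads in genes at day 10 and 2.61% and 3.26% at day 25, and up to 5.25% in other libraries of the series. Without CT12 1 of the lincRNAs rose, and without CT10 181.

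All 4254 called genes had both day 25 libraries on the same side of the day 10 mean. The calls were made on these same libraries, so this adds no support of its own. CT12 was the further library for 2123 of the 2465 risers and 1241 of the 1789 fallers. Measured against the day 10 mean, the median change of the risers was 1.13 in CT11 and 1.58 in CT12, and that of the fallers -0.70 and -0.90. The fits without a library leave 1 library in a group, and this lone library is assumed to vary like the other groups. Without CT09 1697 genes rose and 1109 fell, without CT10 968 and 499, without CT11 2206 and 1967, and without CT12 20 and 45. Where a list is given above with no riser, no faller or no call by limma, edgeR and DESeq2 called none either, except in the neuropeptides, the odorant binding proteins and the markers of the accessory gland and testis. At an unadjusted p below 0.05, 1 of the tubulins and actins, 1 neuronal marker and 1 sex marker had a positive change. At that threshold 5546 genes passed in the full fit and 3086 without CT12. The same 4 libraries alone, fitted with no other group, gave 2458 risers and 1745 fallers.

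The neighbouring intervals share libraries with this one, and their values are given side by side only. From day 5 to day 10, which shares the day 10 libraries, limma called 0 genes in males (0.00%), with 983 at an unadjusted p below 0.05, and edgeR called 0 and DESeq2 56. From day 5 to day 25, which shares the day 25 libraries, 1357 rose (9.25%) and 800 fell (5.46%), 14.7% together, and the total of 2157 became 47 without CT06 and 34 without CT12. From day 25 to day 50, which shares the day 25 libraries and holds CT16, 1198 genes rose and 1320 fell (17.2% together), 475 in all without CT16 and 128 without CT12. *Dhc98D*, higher at day 25 here, stood at 544 and 437 at day 50, and *Idh*, lower here, at 4830 and 6262. *nAChRalpha3* stood at 1097 and 1244 at day 50 and *Atpalpha* at 21237 and 29761.

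Females of day 10 are not analysed here, and the female change from day 5 to day 25 shares no library with the male comparison but starts at another age. It gave 36 calls by limma (0.246%), 12 higher (0.0818%) and 24 lower (0.164%), and 2 without CT14 and 6 without CT07. Of the 2465 genes that rose in males 1946, or 78.9%, had a positive change in females, beside 50.2% of all genes, and 4 were called higher. Of the 1789 that fell 1295, or 72.4%, had a negative change, beside 49.8% of all genes, and 18 were called lower. The 2 female libraries of day 25 differed: against the mean of day 5 the median of the male risers was 0.06 in CT13 and 0.68 in CT14, and that of the fallers 0.0049 and -0.32. *Act79B* fell in both sexes, in females from 1436 and 1060 to 213 and 187. *nAChRalpha6*, higher in males, stood in females at 1626 and 1256 at day 5 and 1996 and 2497 at day 25 and passed no call. Between males and females of day 25, which shares the male libraries, 19 genes were higher (0.130%) and 8 lower (0.0546%) in males, 0.184% together, 14 in all without CT12 and 4 without CT13. Whether the change from day 5 to day 25 differed between the sexes was tested as an interaction, which called 0 genes by limma (smallest adjusted p = 0.814, 683 genes at an unadjusted p below 0.05), 0 by edgeR and 6 by DESeq2.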

How the data were processed

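RNA of the second antennal segment was sequenced in 18 libraries (2 for each of 9 groups, by the labels). The deposited signal is normalised counts, made by the authors in Partek with HTSeq and DESeq2 on dm6 (versions not given in the sources used here): reads per gene divided by 1 size factor per library, from which 100% of values came out as whole reads (tolerance 0.01). The deposited mean and the authors' own fold changes and p-values for other pairs of ages were not used. Genes reaching 10 in 2 or more libraries (14663 of 16624) were fitted as log2(value + 1), which understates the change of low genes, with limma 3.58.1 (R 4.3.3, trend, 1 coefficient per group), Benjamini-Hochberg adjusted over all of them. Calls needed adjusted p below 0.1 and a fold above 1.5. edgeR 4.0.16 and DESeq2 1.42.0 were run on the recovered reads. Named genes were the 10 largest rises and falls (mean of 50 or more), the 10 largest changes called with each library left out, up to 4 called and 2 abundant members per list, and genes the study names. Members and lists were chosen with earlier results of these data known. No library pair agreed within sampling noise. Exon lengths and positions came from the BDGP6.54 annotation, which is dm6, and 98.8% of 15960 gene positions lay within 100 bases of the deposited ones. The scripts were tested on simulated data.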

Additional observations from a re-analysis of the deposited data

How the results depend on the processing

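Direction held in the 167 genes checked one by one, in that no call was reversed under any alternative run. Values called in neither fit were given no direction. Part of this was fixed in advance. Total-count scaling moved the median by 0.40 on the log2 scale, less than the 0.585 that a call needs, so a called fall could not become a rise. Leaving out any of the 14 libraries outside the comparison does not change the log2 change itself. The balance of lists did turn under total-count scaling. Fallers and risers went from 77 and 4 to 1 and 9 in the protein lists and from 21 and 6 to 1 and 9 in pumps and innexins. In detoxification they went from 42 and 20 to 10 and 32. The count of 4254 genes became 2365 with a fold above 2, and 65 to 4347 with 1 library left out (2806 without CT09, 1467 without CT10, 65 without CT12). The risers became 3871 under total-count scaling (chosen, like the scaling on abundant genes, after seeing the data) and 20 to 2554 with 1 library left out. The fallers became 247 under total-count scaling, 333 under scaling on abundant genes, 396 with a fold above 2, and 45 to 1967 with 1 library left out. Of list members, 181 higher became 278 under total-count scaling and 1 to 188 with 1 library left out, and 284 lower became 46, 59 with abundant genes, 54 with a fold above 2, and 8 to 293. CT12 gave the lowest of each of these ranges. The other comparisons gave 36 calls in females (221 by DESeq2, 2 to 48 with 1 library left out), 27 between the sexes at day 25 (65 by DESeq2, 4 to 32), 0 from day 5 to day 10 (56 by DESeq2, 0 to 8), 2518 from day 25 to day 50 (128 to 2607) and 0 for the interaction (6 by DESeq2, 0 to 165, the highest without CT05). The cause of these moves was not tested. No paired analysis was possible because the labels give no replicate numbers shared between groups. Of the genes named above, 140 were called, of which 106 stayed called under total-count scaling, 108 without CT09, 83 without CT10, 124 without CT11 and 31 without CT12, and 139 by edgeR and by DESeq2. Thinned to 5815182 reads in each library, 2172 genes rose and 1651 fell.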
